A study of Mus musculus with 30 samples.

Results

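The genes described here act in mitosis: kinases and cyclins of mitotic entry, checkpoint and kinetochore proteins, kinesin motors, spindle assembly and cytokinesis factors, and proteins that shape mitotic chromosomes. They were taken from a list of 44 genes. A gene was kept if a probe carrying its symbol alone had values on at least 24 of 30 arrays. The rule gave 39 genes on 42 probes, out of 22800 probes and 15096 genes in the whole series. Ccnb1, Espl1, Tacc3 and Smc4 had no such probe here. Cdc20, the activator that turns the anaphase-promoting complex on, had values on 23 arrays and missed the minimum. Nusap1, a microtubule-bundling protein, met the rule but had no value in one extract and entered no fit, so 38 genes were tested.

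The samples were total RNA from mammary carcinomas of mice carrying a c-Myc transgene. Each of 15 tumour RNA extracts was hybridised on 2 two-channel arrays with the channels exchanged, always against one common reference RNA. The labels describe 25 arrays under epithelial to mesenchymal transition (EMT) and 5 under tumour progression, and name each extract by a number and a letter: number 579 covers 5 extracts, number 546 covers 2, and 8 numbers cover 1 extract each. The material of the reference, the promoter of the transgene, the age and strain of the mice, the meaning of the numbers and whether extracts came from separate animals were not given in the sources used here. P-values therefore measure only the spread between these extracts. No untreated or normal gland was among the samples used here, so every comparison with a control is a comparison with the reference.

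Mitosis genes are switched on late in each cell cycle. In the first part of the cycle the DREAM complex holds many of them silent through a cell cycle homology region (CHR) near their start sites. MYB and FOXM1 are recruited to the same regions later, and NF-Y binds the CCAAT boxes that often lie beside a CHR. Cyclin-dependent kinase 1 then drives entry, the spindle checkpoint delays anaphase until kinetochores are attached, and the anaphase-promoting complex ends mitosis by marking cyclins and securin for destruction. In a bulk tumour sample the level of these messages follows both the share of dividing cells and the amount of message per cell, which cannot be told apart here.

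The values were log2 ratios as deposited. The labels name neither dye nor numerator. Arrays with the extract in channel 1 keep the deposited sign and the others were turned, which puts the Myc probe at 3.16 ± 0.11 (SE, n = 15 extracts), positive in all 15. Positive values are called the Myc side below and negative values the opposite side. Since the mice overexpress Myc, the Myc side is likely the side where the extract exceeds the reference; if the ratio ran the other way, higher and lower would change places for every gene. Means are over extracts, each the mean of its 2 arrays.

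The stretches of promoter sequence that follow belong to the 6 members farthest on the opposite side among those with a promoter in the RefSeq table, to Plk1, the one member past the threshold on the Myc side, and to Ube2c and Hmmr, which differed between extracts. Each line gives the 150 bases before the annotated start, 5′ to 3′ along the gene, with coordinates on GRCm38.p6. Capitals mark a match on either strand to the CHR (TTTGAA or TTCGAA), the CCAAT box (CCAAT) or the E-box that Myc and Max recognise (CACGTG). The second form of the CHR and the E-box read the same on both strands, and no matches overlap in the stretches shown.
Anln, chr9:22389207-22389356, minus strand: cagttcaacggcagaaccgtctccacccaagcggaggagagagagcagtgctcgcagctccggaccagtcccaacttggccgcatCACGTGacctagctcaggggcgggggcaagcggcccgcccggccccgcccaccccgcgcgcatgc
Cenpf, chr1:189688087-189688236, minus strand: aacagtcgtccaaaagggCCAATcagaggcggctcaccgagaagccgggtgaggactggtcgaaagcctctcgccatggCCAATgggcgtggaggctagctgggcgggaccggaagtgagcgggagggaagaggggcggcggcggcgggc
Bub1, chr2:127831860-127832009, minus strand: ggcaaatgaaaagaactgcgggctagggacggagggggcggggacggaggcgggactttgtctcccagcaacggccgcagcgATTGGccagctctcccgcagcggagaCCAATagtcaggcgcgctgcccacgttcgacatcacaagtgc
Top2a, chr11:99024190-99024339, minus strand: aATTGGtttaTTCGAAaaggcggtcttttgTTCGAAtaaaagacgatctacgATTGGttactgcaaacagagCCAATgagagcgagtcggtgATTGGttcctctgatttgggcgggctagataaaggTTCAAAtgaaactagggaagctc
Kif4, chrX:100625915-100626064, plus strand: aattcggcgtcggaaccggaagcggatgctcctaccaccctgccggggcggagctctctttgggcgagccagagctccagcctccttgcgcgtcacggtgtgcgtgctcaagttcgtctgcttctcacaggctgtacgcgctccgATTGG
Mad2l1, chr6:66535071-66535220, plus strand: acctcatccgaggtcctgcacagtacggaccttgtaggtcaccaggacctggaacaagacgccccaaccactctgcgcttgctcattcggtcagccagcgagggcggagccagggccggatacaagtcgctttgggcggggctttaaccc
Plk1, chr7:122159285-122159434, plus strand: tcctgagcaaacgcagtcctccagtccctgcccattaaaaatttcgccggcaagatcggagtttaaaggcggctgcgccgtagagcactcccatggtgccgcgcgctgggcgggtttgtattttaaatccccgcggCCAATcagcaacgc
Ube2c, chr2:164769779-164769928, plus strand: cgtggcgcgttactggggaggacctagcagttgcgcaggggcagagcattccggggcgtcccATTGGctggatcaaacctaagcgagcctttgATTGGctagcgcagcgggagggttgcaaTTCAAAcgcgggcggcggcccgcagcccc
Hmmr, chr11:40733438-40733587, minus strand: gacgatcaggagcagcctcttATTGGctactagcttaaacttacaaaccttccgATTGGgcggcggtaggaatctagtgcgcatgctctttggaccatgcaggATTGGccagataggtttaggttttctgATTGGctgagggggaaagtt

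These promoters differ in what they hold. The Top2a stretch has 3 CHR matches and 4 CCAAT boxes, and Hmmr has 4 CCAAT boxes with no CHR. Cenpf and Bub1 hold a pair of CCAAT boxes each. Ube2c joins 2 CCAAT boxes to a CHR that begins 29 bases before the start. Plk1 has 1 CCAAT box, which begins 14 bases before its start, and Kif4 has 1, which begins 5 bases before it. The Anln stretch holds an E-box and neither of the others, and the Mad2l1 stretch holds none of the motifs searched. Over the 250 bases before the start, 32 of the 39 genes had an entry. A CCAAT box lay in 25 of these 32 (78.1%), against 33.8% of the 32851 promoters in the table. A CHR lay in 13 of 32 (40.6%, against 17.1%), and both motifs in 12 of 32 (37.5%, against 6.02%). The E-box lay in 2 of 32 (6.25%, against 6.02%). Members were counted by gene, with the motif in any entry of the gene, and the whole table by single promoters. Among members past the threshold on the opposite side, described next, a CHR lay in 6 of 14 and a CCAAT box in 10 of 14; among the remaining fitted members these were 7 of 17 and 15 of 17. These matches describe letters in the window and say nothing of binding.

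Against the reference, the members lay mostly on the side opposite Myc. Of 38 fitted genes, 15 (39.5%) passed the threshold there, where 14.9% of all 9919 genes tested did. The farthest were Anln, Cenpf, Bub1, Top2a, Kif4 and Mad2l1, at 1.74 to 2.45-fold. Only Plk1 (2.63% of members) passed on the Myc side, where 33.5% of all genes did. The other 22 members had means from -0.27 to 0.26 and did not pass. The threshold is an adjusted p under 0.05 from limma, a linear model with pooled variances, with Benjamini-Hochberg adjustment over all 12888 probes fitted. The median mean of the members was -0.22 against 0.16 over all genes, and 29 of 38 lay below 0, against 37.3% of all genes.

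**Figure D1:**
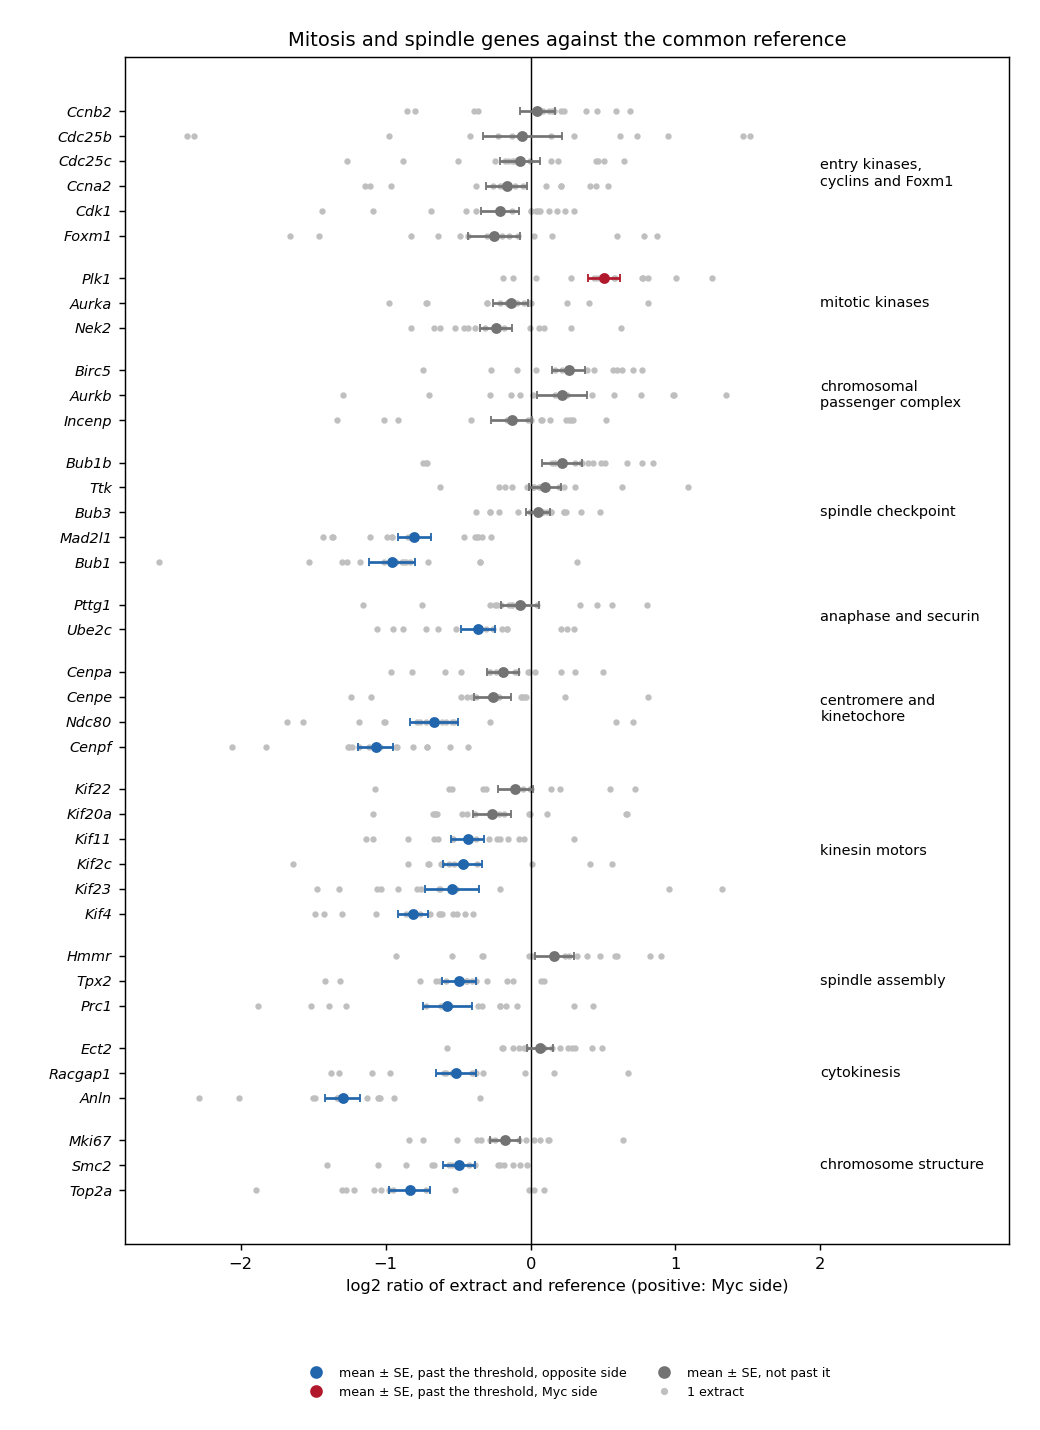
Log2 ratio of each of the 38 fitted members against the common reference (horizontal axis; positive is the Myc side), grouped by role. Grey dots are the 15 extracts, larger points the mean with the limma SE, blue past the threshold on the opposite side (15 genes), red past it on the Myc side (Plk1) and dark grey not past it (22 genes); in Anln, Cenpf, Kif4, Mad2l1 and Smc2 every extract lies below 0.

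None of the 6 fitted entry genes passed the threshold. Cdk1, the kinase that drives entry, had a mean of -0.21, and its cyclin partners Ccna2 and Ccnb2 stood at -0.16 and 0.05. Cdc25c, a phosphatase that activates Cdk1, had a mean of -0.07. For the related phosphatase Cdc25b the mean of -0.06 joins -1.34 with the extract in channel 1 and 1.47 in channel 2, and is no level. Foxm1, the transcription factor of the late cell cycle program, likewise joined -1.28 and 0.77 to a mean of -0.25. Individual extracts lay on both sides of 0 for each of these 6 genes.

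Among the mitotic kinases, Plk1, which acts from centrosome maturation to cytokinesis, ran from -0.19 through a median of 0.49 to 1.25. Its mean was 0.51 ± 0.11 (SE, n = 15; adjusted p = 0.00105, limma), and 13 of 15 extracts lay on the Myc side. A second Plk1 probe, with values on 26 arrays, did not show this: it ran from -1.0 through -0.24 to 1.72, with a mean of -0.00 (adjusted p = 0.998, limma), and its mean changed from -1.61 to 1.51 between the channel orientations. The Plk1 call rests on the first probe and was lost when both probes were averaged (0.29, adjusted p = 0.0737, limma). Aurka, the centrosomal Aurora kinase, stood at -0.14 and Nek2, a kinase of centrosome separation, at -0.24; neither passed.

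The chromosomal passenger complex, which corrects faulty attachments and later guides cytokinesis, showed no member past the threshold. Its scaffold Incenp had a mean of -0.13, survivin (Birc5) of 0.26 and its kinase Aurkb of 0.22. The Aurkb mean joins opposite readings, -1.55 with the extract in channel 1 and 1.98 in channel 2, so its mean is no level.

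The checkpoint genes were split. Bub1, a kinase that builds the checkpoint platform at kinetochores, ran from -2.57 through -0.89 to 0.32, with 14 of 15 extracts below 0 and a mean of -0.95 ± 0.16 (SE, n = 15; adjusted p = 0.000101, limma). Mad2l1, whose product Mad2 holds the anaphase activator in check, was below 0 in all 15 extracts, from -1.43 through -0.84 to -0.27, with a mean of -0.80 (adjusted p = 1.8e-05, limma). In contrast, the pseudokinase Bub1b (0.22), the kinase Ttk, also called Mps1 (0.10), and the Bub1 partner Bub3 (0.05) did not pass. The 2 checkpoint genes that passed thus lie beside 3 with means slightly above 0.

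At the exit from mitosis, Ube2c, the ubiquitin-conjugating enzyme of the anaphase-promoting complex, passed on the opposite side with a mean of -0.36 ± 0.12 (SE, n = 15; adjusted p = 0.0163, limma). It was below 0 in 12 extracts, and its call was lost when extracts of one number were averaged (adjusted p = 0.0816, limma). Securin (Pttg1) stood at -0.07. Cdc20, outside the rule, ran from -1.95 to 2.18 over 14 extracts and turned from -0.50 to 1.19 between the orientations, so no level is given for it.

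All 4 centromere and kinetochore members had negative means, and 2 passed. Cenpf, a large kinetochore and nuclear matrix protein, was below 0 in every extract, from -2.06 through -1.04 to -0.43, with a mean of -1.07 ± 0.12 (SE, n = 15; adjusted p = 1.29e-06, limma). Ndc80, which binds microtubule ends, ran from -1.68 through -0.72 to 0.71 with a mean of -0.66, and only 546-A and 597-B lay above 0. Cenpe, a kinetochore motor, stood at -0.26 and Cenpa, the centromeric histone, at -0.19; they did not pass.

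The 6 kinesin motors also had negative means throughout, and 4 passed. Kif4, a chromosome-bound motor that also works at the central spindle, lay below 0 in all 15 extracts, from -1.49 through -0.69 to -0.39, with a mean of -0.81 ± 0.10 (SE, n = 15; adjusted p = 5.19e-06, limma). Kif23, the motor of the centralspindlin complex, ran from -1.47 through -0.63 to 1.32 with a mean of -0.54. Its mean was -1.35 with the extract in channel 1 and 0.38 in channel 2, and both extracts of number 546 stood at 0.95 or above while the other 13 were negative. Kif2c, a microtubule depolymerase, had a mean of -0.47 and Kif11, the motor that pushes spindle poles apart, of -0.43. Kif20a (-0.27) and Kif22 (-0.10) did not pass.

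Of the spindle assembly genes, Prc1, which bundles microtubules of the midzone, ran from -1.88 through -0.36 to 0.43 with a mean of -0.57 (adjusted p = 0.00901, limma). Tpx2, the activator of Aurora A on the spindle, had a mean of -0.50 and was below 0 in 13 extracts. Nusap1 had a mean of -0.36 ± 0.14 (SE, n = 14), outside the fit, with 10 of 14 extracts below 0. Hmmr, a hyaluronan receptor that also organises spindle poles, stood at 0.16 and did not pass.

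In cytokinesis, Anln, the anillin scaffold of the contractile ring, lay farthest of all members. It ran from -2.29 in 579-D through a median of -1.30 to -0.35 in 546-A, with a mean of -1.30 ± 0.12 (SE, n = 15; adjusted p = 1.77e-07, limma), which is 2.45-fold. Its second probe stood beside it, from -1.63 through -0.96 to -0.67 with a mean of -1.04 (adjusted p = 8.95e-08, limma), also below 0 in every extract. Racgap1, the GTPase-activating subunit of centralspindlin, ran from -1.38 through -0.52 to 0.68 with a mean of -0.51. Ect2, the exchange factor that it recruits, stood at 0.06 and did not pass.

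Among chromosome proteins, Top2a, the topoisomerase that untangles sister chromatids, ran from -1.90 through -0.95 to 0.09 with a mean of -0.83 ± 0.14 (SE, n = 15; adjusted p = 0.000114, limma). As deposited, 540-B, 546-B and 597-B lay between -0.01 and 0.09, and the other 12 at -0.52 or lower. With array medians subtracted these extracts read -0.12, -0.28 and -0.13, and the next, 567-B, read -0.58. Top2a did not pass between extracts (adjusted p = 0.216, limma's moderated F test). Smc2, a condensin subunit, was below 0 in all extracts on its first probe, from -1.40 through -0.42 to -0.02, with a mean of -0.49. Its second probe ran from -0.92 through -0.30 to 0.22 with a mean of -0.39, and both passed. Mki67, the proliferation marker that coats mitotic chromosomes, had a mean of -0.18 and did not pass.

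How many members passed depended on the level of the arrays. Array medians after turning ran from -0.94 to 1.14, and subtracting them moved the median of all genes from 0.16 to 0.07. With medians subtracted, 21 members passed on the opposite side, against 19.6% of all genes; Cdk1, Nek2, Cenpa, Cenpe, Kif20a and Mki67 were added and none of the 16 calls was lost. Plk1 alone stayed on the Myc side, against 28.5% of all genes. In 5 members (Anln, Cenpf, Kif4, Mad2l1 and Smc2) all 15 extracts lay on the opposite side without that step, as in 3.58% of all genes; no member had all 15 on the Myc side, as 9.12% of all genes did.

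The channel orientations read some members differently. Means lay on different sides of 0 in the 2 orientations for 14 of 38 members, against 44.3% of all genes; among the 16 that passed, this held for Kif23 alone. On channel 1 arrays by themselves Ube2c and Racgap1 lost the call, and on channel 2 arrays Kif2c, Kif23 and Prc1 did. The gap exceeded 1 for 4 members: Aurkb, Cdc25b, Foxm1 and Kif23. A share of the deposited values is, at the precision given, exactly that of 2 whole numbers no larger than 20 divided by each other, which is what low signals would give. In the members 0% to 42.3% of values were of this kind, with a median of 13.3% against 17.2% over the probes kept, and the second Plk1 probe had the highest share. No member was over the 50% that was taken to mark a dim probe.

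**Figure D2:**
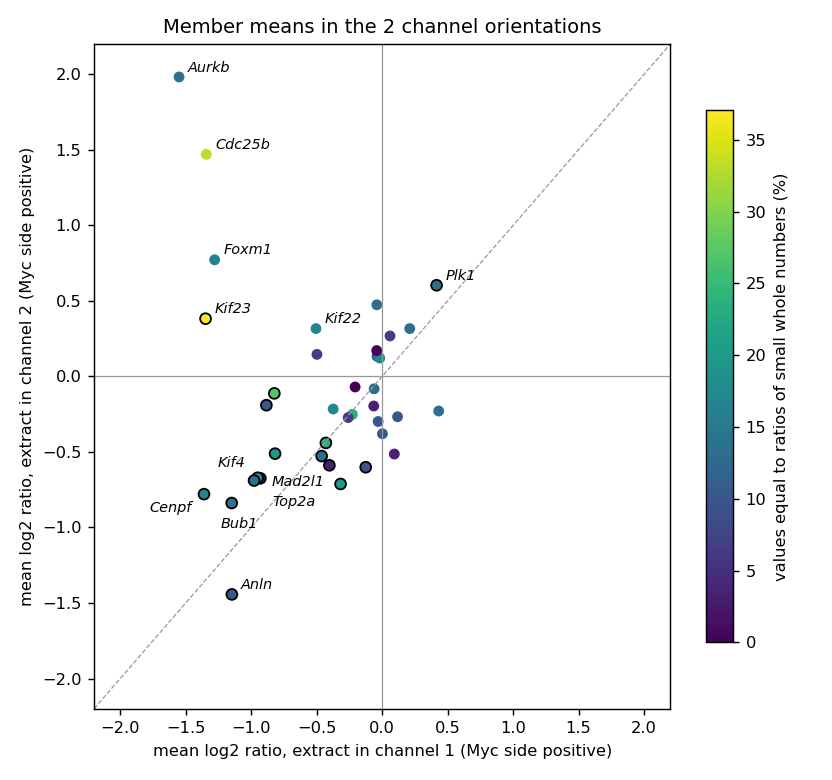
Mean log2 ratio of each fitted member with the extract in channel 1 (horizontal axis) and in channel 2 (vertical axis), both with the Myc side positive; colour is the percentage of values equal to ratios of whole numbers up to 20, black rims mark the 16 members past the threshold, and the dashed line is equality. Anln, Cenpf and Bub1 lie far below 0 on both axes, while Aurkb (-1.55 and 1.98), Cdc25b, Foxm1 and Kif23 change sides.

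Other genes of the cell cycle gave a background for the members. Of 77 further mitosis genes tested, 26 (33.8%) passed on the side away from Myc and 12 (15.6%) on that of Myc, with a median of -0.18, close to that of the members. On the opposite side the farthest were Cep55 (-1.47), a midbody protein of abscission, Pimreg (-0.97), Ckap5 (-0.95), a microtubule polymerase, Nuf2 (-0.83), the partner of Ndc80, the lamin B receptor Lbr (-0.81) and the kinesin Kif18a (-0.81). On the Myc side stood Aspm (1.16), a spindle pole protein, Cenpb (0.77), Psrc1 (0.68), the histone kinase Haspin (0.66), H2ax (0.63) and Lmnb1 (0.52). With array medians subtracted, 36 of these genes passed on the side away from Myc and 9 on that of Myc. Mitosis genes were thus found on both sides.

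Lists of the machinery that the members work with were small. Of 10 anaphase-promoting complex genes, 5 passed on the Myc side (50%, against 33.5% of all genes) and none on the opposite side (against 14.9%): Anapc13 (0.53), Cdc16 (0.45), Fzr1 (0.44), Anapc7 (0.35) and Anapc16 (0.33). Of 8 cohesin genes, 3 (37.5%, against 14.9%) passed on the opposite side: Smc3 (-0.39), Stag2 (-0.37) and Nipbl (-0.27). A second probe stood at 0.17 for Stag2 and -0.01 for Nipbl, so these calls rest on one probe each. Replication genes were mixed, with 5 of 30 past the threshold below 0 (16.7%, near the 14.9% of all genes), 4 above (13.3%, against 33.5%) and a median of -0.09. They included Pola1 (-0.48), Cdc45 (-0.47), Mcm4 (-0.44) and Pole (-0.35) below 0, and Mcm7 (1.01), Rfc5 (0.75), Gins4 (0.42) and Dnmt1 (0.31) above. Gins2 stood at -1.03 on one probe and 0.76 on another.

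Of 14 E2F, MYB and DREAM genes, 5 passed on the Myc side (35.7%, near the 33.5% of all genes): Tfdp1 (0.99), the E2F dimer partner, E2f3 (0.85), E2f6 (0.64), E2f5 (0.48) and Mybl2 (0.39). E2f1 passed on the opposite side at -0.50 (7.14% of the list). Genes of cell cycle exit lay lowest, with 10 of 12 (83.3%, against 14.9%) on the opposite side and a median of -0.96. They were led by the growth arrest genes Gas1 (-2.49) and Gas2 (-2.08), the kinase inhibitors Cdkn2c (-1.87) and Cdkn2d (-1.56), and the stress gene Gadd45a (-1.46) and Ccng2 (-0.97). The lists were picked by function with earlier results of these data known, and their counts are given without a test.

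**Figure D3:**
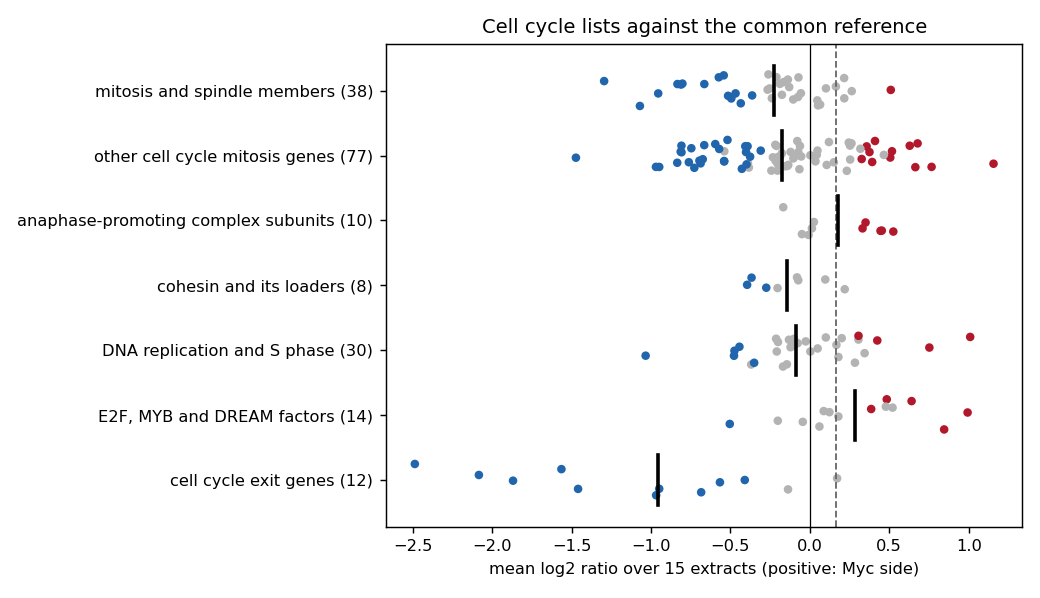
Mean log2 ratio over 15 extracts (horizontal axis; positive is the Myc side) for every tested gene of the members and of 6 other cell cycle lists, with the number of genes in brackets. Blue dots passed the threshold below 0, red dots above 0 and grey dots on neither side, black bars are list medians and the dashed line is the median of all genes (0.16); the members (median -0.22) and the other mitosis genes (-0.18) overlap widely, and the cell cycle exit genes lie lowest (-0.96).

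Markers were read to check the tissue. All 6 luminal epithelial markers lay on the Myc side, from Krt18 (0.83) to Cldn3 (4.76), as did all 4 endothelial markers tested and 4 of 5 macrophage markers. With array medians subtracted, 3 macrophage markers passed on the Myc side and 1 (Cd68) on the opposite side. The macrophage marker C1qb joined -0.65 with the extract in channel 1 and 1.77 in channel 2. Of 5 fibroblast markers, 3 lay on the opposite side (Dcn, Col3a1 and Col1a2) and 2 did not pass. Hba-a1, the 1 erythroid marker tested, stood at 2.84, and 1 of 2 adipocyte markers passed on the Myc side (Fabp4, 2.06). On the opposite side passed 1 of 2 B cell and 1 of 3 T cell markers. None of 4 skeletal muscle markers passed. Their mean, medians subtracted, was highest in 546-A (4.41) and 546-B (2.38), and its part in the members' levels was not tested. Without knowing what the reference holds, these values place the extracts relative to it and not in absolute terms. Arrays held 13434 to 21991 values, and extracts 546-A and 548-A were measured most thinly, with 6 and 3 of the member probes on 1 array only. Paired arrays of one extract correlated at 0.01 to 0.56 over probes on all arrays after turning.

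Between extracts, 4 of 38 members (10.5%) differed by more than their paired arrays did, against 7.21% of all genes. They were Incenp (adjusted p = 0.00715), Hmmr (0.00901), Ccna2 (0.0121) and Ube2c (0.0498), by limma's moderated F test with a dye term. No member passed once array medians were subtracted, where adjusted p was 0.272, 0.153, 0.393 and 0.722 for the same genes and 5.98% of all genes passed. Ube2c also lost its call in 13 of the 15 fits that each left out 1 extract, and Ccna2 and Ube2c lost theirs without the dye term. At an unadjusted p under 0.05 there were 12 members (31.6%) as deposited, against 22.3% of all genes, and 4 (10.5%) with medians subtracted, against 18.3% of all genes.

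The called genes shared their low extracts in part. Incenp stood at -1.33 in 579-E, -1.01 in 550-A and -0.91 in 579-D, and between -0.41 and 0.52 in the other 12 extracts. Ccna2, the cyclin of S phase and early mitosis, was lowest in the same 3 extracts, at -1.14, -1.11 and -0.96, and highest in 597-B at 0.54. These are values as deposited. With array medians subtracted, Ccna2 was lower in 595-A (-0.76) than in 579-D (-0.69). Hmmr was lowest in 550-A (-0.93) and 561-B (-0.54) and highest in 546-B (0.90). Ube2c was lowest in 579-D (-1.06) and 579-A (-0.95) and above 0 only in 561-B, 579-F and 597-B.

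Spread over extracts ran from an SD of 0.25 for Bub3 to 1.15 for Cdc25b, with a median of 0.47. After Cdc25b the widest were Kif23 (0.76), Foxm1 (0.72), Aurkb (0.68), Prc1 (0.67), Ndc80 (0.66), Bub1 (0.64) and Top2a (0.55). Cdc25b, Kif23, Foxm1 and Aurkb are the members whose orientations disagree by more than 1. Their paired arrays did not track each other, with correlations over extracts from -0.47 for Kif23 to -0.01 for Cdc25b, so their spread does not repeat between arrays. Hmmr (0.91), Incenp (0.88), Ccna2 (0.85) and Ube2c (0.81) repeated best. These repeat correlations are on values as deposited. The median over the members was 0.31, against 0.13 over all genes.

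**Figure D4:**
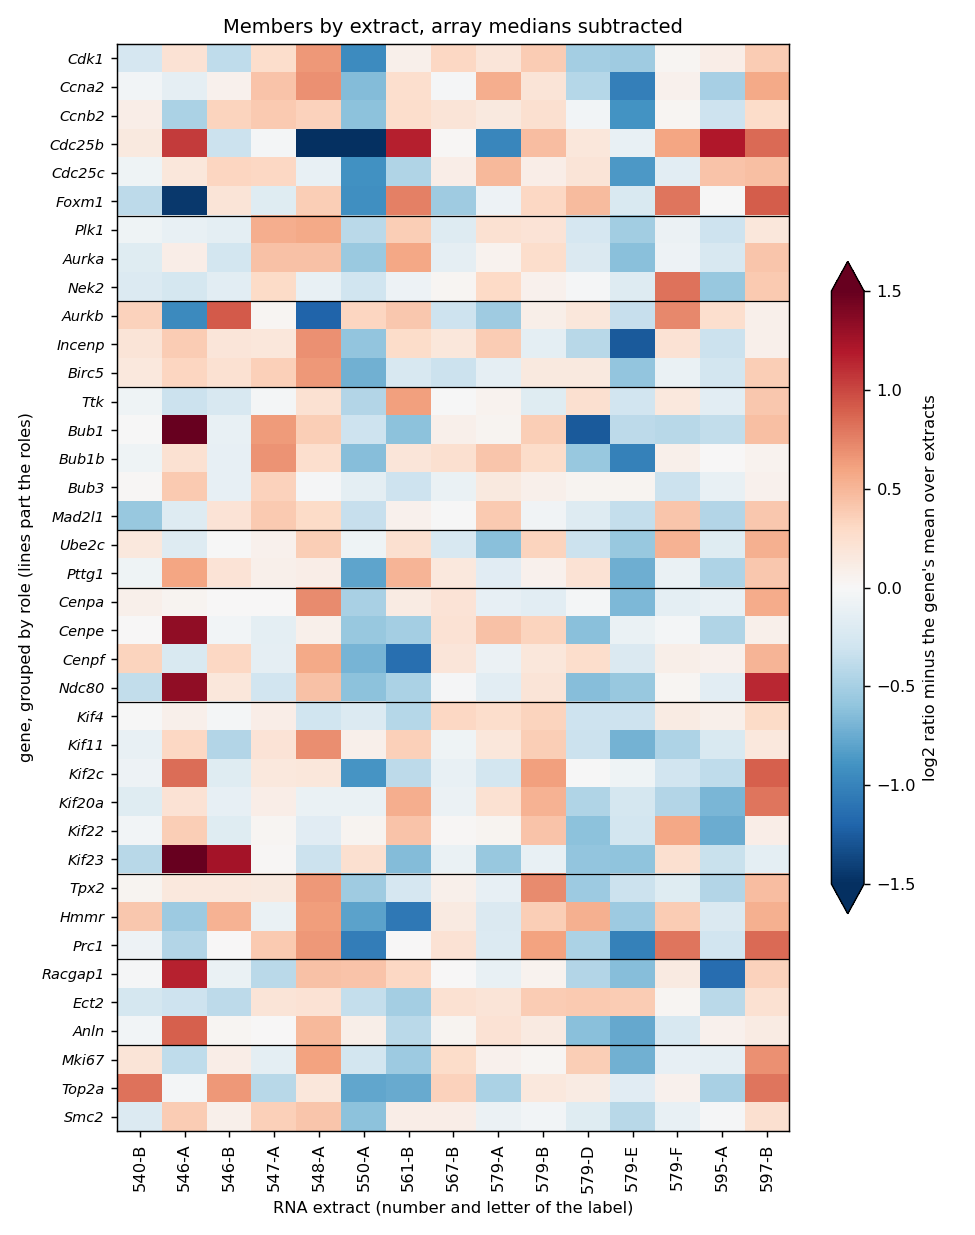
Log2 ratio of each fitted member (rows, grouped by role) in each of the 15 extracts (columns), with array medians subtracted and shown as the difference from the gene's mean over extracts; red is toward the Myc side, blue away from it, and colours end at 1.5. Columns 550-A and 579-E are blue for 32 and 36 of the 38 members and column 597-B is red for 37.

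The members as a group were read in each extract, as a description without a test. With array medians subtracted, the members' median deviation from their own means was highest in 597-B, at 0.40, where only 1 of 38 lay below its mean, and in 548-A, at 0.37. It was lowest in 550-A, at -0.54 with 32 of 38 below, and 579-E, at -0.53 with 36 of 38 below. Extracts 595-A (-0.26, 30 below) and 579-D (-0.21, 25 below) followed. Over all genes the same median stayed between -0.16 and 0.14, at -0.16 in 595-A and 0.10 in 579-D. The share of all genes below their own means was 47.5% in 597-B, 51.3% in 550-A and 49.1% in 579-E. It was 64.5% in 595-A, where all genes were thus also low, and 42.5% in 579-D. Both arrays of 550-A (-0.59 and -0.49), of 579-E (-0.43 and -0.72), of 548-A (0.29 and 0.43) and of 597-B (0.56 and 0.20) lay on the same side. This held for 9 of the 15 extracts. In the other 6, the 2 arrays disagreed, as in 579-F (0.43 and -0.27).

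In the same extracts the 77 further mitosis genes stood at 0.36 in 597-B and in 548-A, -0.34 in 550-A and -0.23 in 579-E. Replication genes read 0.19, 0.22, -0.26 and -0.33 in these 4. Fibroblast markers varied among the same extracts. Their mean over the tested markers, medians subtracted, was 0.93 in 550-A, the highest of all, and -2.61 in 597-B. It was -0.55 in 579-E, -2.93 in both 579-D and 595-A, and -1.92 in 548-A. The low extracts of the members thus spanned the fibroblast range, while both high extracts lay in its lower part; the part of stromal content in the members' levels was not tested.

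**Figure D5:**
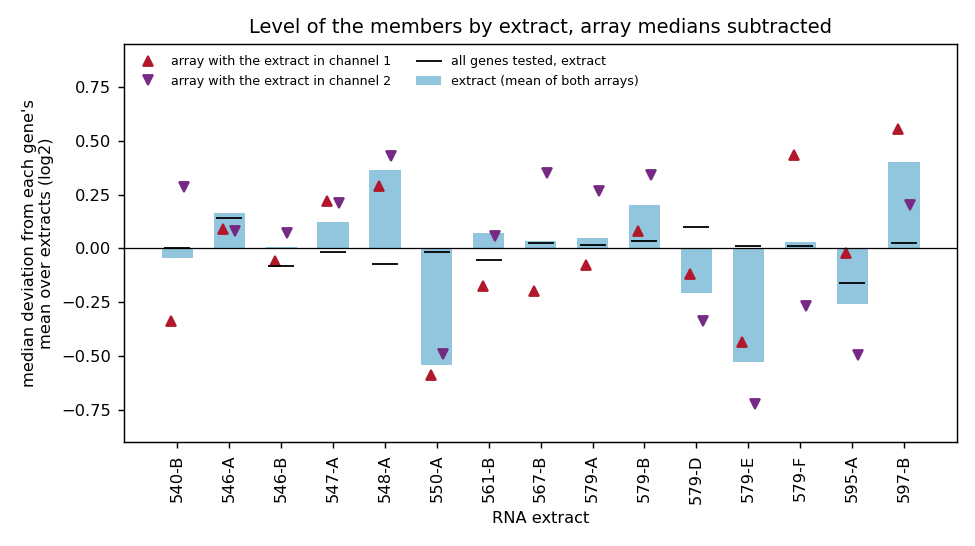
Median over the 38 members of the deviation from each gene's mean over extracts (log2, array medians subtracted), by extract. Bars are extracts, triangles their arrays with the extract in channel 1 (pointing up) and channel 2 (pointing down), and black dashes the same median over all genes; 550-A (-0.54) and 579-E (-0.53) are low and 597-B (0.40) is high on both arrays, whereas the arrays of 540-B and 579-F fall on different sides.

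Pairs of members were mostly correlated above 0 over the extracts. Over the 496 pairs of the 32 members measured on all arrays, the median Pearson correlation was 0.37 across the 15 extracts, against 0.05 over all pairs of such genes. With array medians subtracted, the closest pairs were Cenpf and Hmmr (0.94), Aurka and Plk1 (0.92), Ccna2 and Plk1 (0.90), and Ccna2 and Ccnb2 (0.87). These points share arrays, and a deviation of one array enters both genes. Each named pair includes a gene whose paired arrays hardly tracked each other over extracts: Cenpf (r = 0.09), Plk1 (-0.07) or Ccnb2 (-0.08). These repeat correlations are on values as deposited. When channel 1 arrays of one gene were set against channel 2 arrays of the other, the median fell to 0.09, against -0.06 over all genes. Tpx2, Birc5, Smc2 and Prc1 followed the other members most closely, with median correlations of 0.53 to 0.54, and Aurkb was lowest at -0.19. These correlations are descriptions of 15 extracts.

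The 5 extracts of number 579 were compared with the 10 others. No member passed the threshold, and neither did any of the 9919 genes (0%); at an unadjusted p under 0.05 there was 1 member (Anln) against 3.47% of all genes. Of the 38 members 34 lay lower in 579, against 56.9% of all genes, and the median difference was -0.23 against -0.05 over all genes. With array medians subtracted 27 lay lower, against 42.7% of all genes, and the median differences were -0.12 and 0.05. The 5 members of smallest p were Anln, Cenpa, Bub1, Kif11 and Incenp. Anln read -1.04, -1.30, -2.29, -2.01 and -1.49 in 579-A, B, D, E and F, and -1.50 to -0.35 with a median of -1.21 in the others, a difference of -0.50 ± 0.23 (SE; unadjusted p = 0.0494, limma). Extracts 579-D and 579-E were the low ones and the groups overlapped. The second Anln probe did not show this: it read -0.80 in 579-D and -0.91 in 579-E, with a difference of 0.08 ± 0.20 (SE; unadjusted p = 0.697, limma), and no member was under 0.05 with all probes of a gene averaged. The differences were -0.45 for Cenpa, -0.58 for Bub1, -0.40 for Kif11 and -0.48 for Incenp. The smallest adjusted p among members was 1.00 (limma).

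The 2 extracts described under tumour progression, 550-A and 561-B, were set against 12 described under EMT; 595-A, with one array under each description, was left out. No member passed, and 1 gene of all tested did (0.0101%). At an unadjusted p under 0.05 there were 3 of 38 members, against 4.04% of all genes. Cenpf stood at -2.06 and -1.83 in the 2 progression extracts and at -1.26 to -0.43, median -0.98, in the 12 others, a difference of -0.99 ± 0.27 (SE; unadjusted p = 0.00214, limma). Hmmr stood at -0.93 and -0.54 against -0.34 to 0.90, median 0.36, a difference of -1.04. Cenpf and Hmmr correlated at 0.94 over the extracts with array medians subtracted, so they are not 2 separate readings. As deposited, paired arrays correlated over extracts at 0.09 for Cenpf and 0.91 for Hmmr, so the Cenpf values hardly repeated between arrays. How many of all genes separate the groups was not counted. Top2a stood at -1.90 and -1.22 against -1.30 to 0.09, median -0.82, and the groups overlapped. Next by p were Cdc25c (-0.68) and Kif2c (-0.70). The smallest adjusted p among members was 0.945 (limma). The 2 extracts did not behave alike over the members: the median difference was 0.41 with 561-B alone and -0.86 with 550-A alone, against 0.34 and -0.30 over all genes.

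Levels of the members did not follow the Myc probe in a way that passed a test. Over 15 extracts, with array medians subtracted, Pearson correlations with Myc ran from -0.40 to 0.53 with a median of 0.08. The smallest Benjamini-Hochberg adjusted permutation p over the 38 correlations was 0.998 (100000 permutations, two-sided). By Pearson's r, Ect2 alone had an unadjusted permutation p under 0.05, with r = 0.53 (p = 0.0426), Spearman's rho = 0.47 (p = 0.0802), and r = 0.31 without the 2 extracts farthest from the Myc median. With 1 mean per extract number (n = 10), its r was 0.40 (permutation p = 0.244). By Spearman's rho, Nek2 alone was under 0.05, with rho = 0.55 (permutation p = 0.0351) and r = 0.43 (p = 0.11). On values as deposited it was Foxm1, with r = 0.63 (permutation p = 0.0128; adjusted p = 0.486) and rho = 0.65 (p = 0.00994). The Foxm1 r was 0.42 without the 2 extracts farthest from the Myc median. Its paired arrays correlated at -0.26 over extracts, so its values did not repeat between arrays. As deposited, the Myc probe itself spanned 2.38 to 3.68.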

How the data were processed

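The deposited values were log2 ratios from two-channel arrays, given by the authors in one table of 30 arrays. Background correction, normalization, scanner and dyes were not given in the sources used here. In each column 16.61 stood in place of some values (8839 in all) and was taken as missing. Genes were named from GEO's platform annotation: 16874 probes carried 1 symbol, 134 several and the rest were not listed. Ratios were turned to one direction, the arrays of an extract were averaged, and probes with values on at least 24 arrays and in every extract were kept (12888 probes, 9919 genes; a gene is counted by its probe with the most arrays). Limma 3.58.1 in R 4.3.3 tested extract means against 0, number 579 against other numbers, progression against EMT, and extracts against paired arrays (arrays as units, with a dye term). Scripts were tested on simulated data. No count depth exists for arrays; their number limits precision. Motifs were searched in RefSeq promoters of GRCm38.p6.

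The members and lists were chosen with earlier results of these data known. Named genes followed a written rule: members past the threshold, values for the 10 farthest from 0 and for genes with several probes, the 8 of largest SD, the 5 of smallest p in label groups, and up to 6 genes on each side of other lists. Alternatives covered array medians, channel orientation, probe filters, dim probes, robust variances, extract number as a block or averaged, and leaving out extracts.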

Additional observations from a re-analysis of the deposited data

Results flagged for a closer look

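Each of 78 groups of values (a member in number 579, or in the other numbers) was searched for an extract far from the rest. Dixon's ratio on values as deposited was used, which chance passes in about 1 in 20 groups of independent, normal values. In all, 11 passed. The share over all genes was not computed and the members are correlated, so 11 is not read as an excess. Extract 550-A was the lowest of the other numbers for Cdk1 (-1.44; next -0.44), Incenp (-1.01; next -0.16), Bub1b (-0.72; next 0.15), Cenpa (-0.96; next -0.24), Tpx2 (-1.31; next -0.65), Nusap1 (-1.59; next -0.52) and Smc2 (-1.40; next -0.68). In each of these 7 both arrays of 550-A were negative, as were the medians of its 2 arrays (-0.26 and -0.13). With array medians subtracted 550-A stayed the lowest in each, but nearer to the next extract. Incenp then read -0.82 (next -0.54) and Tpx2 -1.12 (next -1.03). Dixon's ratio was not computed with medians subtracted for any flag, so the flags hold for values as deposited only. Extract 579-E was the lowest of number 579 for Pttg1 (-0.75; next -0.23) and Mki67 (-0.84; next -0.28), and 579-D for Nusap1 (-1.47; next -0.35). For Anln, 546-A was the highest of the other numbers (-0.35; next -0.94).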

How the results depend on the processing

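Of the 16 calls against the reference, all 16 kept their side and their call with dim probes left out, with array medians subtracted, with the extract number as a random block and with each extract left out in turn. The count on the Myc side was 2 on channel 1 arrays, 4 on channel 2 arrays, 2 on probes with values on all arrays, 0 with the mean of a gene's probes, 2 without 546-A and 548-A, and 1 to 2 with each extract left out (2 without 550-A or 579-E, which added Birc5). Under the settings that follow, the members that changed side were not past the threshold as reported, except Kif23 (0.38 on channel 2 arrays). They were, with medians subtracted, Ccnb2 (-0.047), Bub3 (-0.043) and Ect2 (-0.030); on channel 1 arrays, Cdk1 (0.093), Ccnb2 (-0.039), Aurkb (-1.55), Bub1b (-0.041), Bub3 (-0.018), Pttg1 (0.12), Cenpa (0.0021) and Ect2 (-0.042), and Cdc25c between progression and EMT (0.16); on channel 2 arrays, Cdc25b (1.47), Foxm1 (0.77), Ttk (-0.23), Kif22 (0.32) and Mki67 (0.15); and Cdc25b without 546-A and 548-A (0.057). Leaving out single extracts also turned 3 members that had not passed: Cdc25b (0.11 without 548-A, 0.11 without 550-A and 0.0091 without 579-A), Cdc25c (0.013 without 550-A) and Pttg1 (0.0024 without 550-A). Between extracts the count was 0 with medians subtracted, 8 on complete probes, 2 without the dye term and 3 to 6 with each extract left out. The causes were not tested. Leaving out each extract of the comparison with the reference and of that between extracts was chosen after seeing the data. No paired analysis was possible because the groups are extracts, each measured on 2 arrays that differ in channel orientation. The limits are the unknown reference, a direction that is likely but not given, low agreement of paired arrays, and 2 extracts under tumour progression.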
